A study of Mus musculus with 57 samples.

Results

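The 44 genes described here take a mouse cell from the decision to divide, through the copying of its DNA, to the separation of its chromosomes. They were picked by symbol, and each symbol matched 1 of the 54307 gene rows of the count table. By role they fall into 11 G1/S genes (Ccnd1, Ccne1, Ccne2, Mcm2 to Mcm7, Cdc6 and Rrm2), 9 other replication genes (Cdt1, Pcna, Rrm1, Tyms, Tk1, E2f1, Uhrf1, Hells and Lig1) and 24 G2/M genes of the mitotic cyclins, kinases, kinetochore and spindle. The rule used no measured value.

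Transcripts were measured by RNA sequencing in the livers of 57 mice, 40 given 1 of 7 liver toxicants and 17 given a vehicle. All were wild-type C57BL/6JJcl males, 6 weeks old on arrival and kept for 1 week before use. They were fasted for 12 h and killed 24 h after the dose, so each compound was seen at a single time. By gavage, 4 mice received alpha-naphthyl isothiocyanate (ANIT), 6 acetaminophen (APAP), 7 4,4'-methylene dianiline (MDA) and 5 thioacetamide (TAA). Their controls were the 13 gavage vehicle mice, given 0.5% methylcellulose. By intraperitoneal injection, 7 mice received carbon tetrachloride (CCl4) and 4 received galactosamine (GAL), and 2 mice received 0.9% saline. By intravenous injection, 7 mice received concanavalin A (ConA), a plant lectin that activates T cells, and 2 mice received 0.9% saline. Compound doses are not given in the sources used here. Corn oil is named as a vehicle too, and no corn oil control is among the groups, so an effect of corn oil and of a compound dissolved in it cannot be told apart.

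Hepatocytes of an adult liver rest outside the cycle and can return to it after tissue loss. Growth signals raise cyclin D1, which with its kinase partners starts to inactivate the retinoblastoma protein. Cyclin E and the E2F factors then drive the genes that license origins, make deoxynucleotides and copy DNA. Later, in G2 and mitosis, a further set of genes is switched on through DREAM and FOXM1 complexes, among them Cdk1, the cyclins A and B, the Aurora kinases and the kinetochore proteins. In whole-tissue RNA, a lower share of cycling cells and less transcript per cell cannot be told apart, and neither can a cycling hepatocyte and a cycling leukocyte.

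Short promoter motifs known from these gene sets are shown because they describe the genes without using any expression value, and no test of a difference between the sets was run. In RefSeq windows of 300 bases (250 before and 50 after the annotated start, build GRCm38.p6), 37 of the 44 genes had at least 1 window. Searched on both strands were 3 motifs: E2F sites spelled TTTCCCGC, TTTGGCGC, TTTCGCGC or TTTGCCGC, the CHR element (cell cycle genes homology region) spelled TTTGAA or TTCGAA, and the NF-Y box CCAAT. An E2F site was present for 5 of 8 G1/S genes, 4 of 9 other replication genes and 1 of 20 G2/M genes, beside 2.26% of all 32851 windows. The CHR element was present for 15 of 20 G2/M genes, 2 of 8 G1/S genes and 0 of 9 other replication genes, beside 19.2% of all windows. The NF-Y box was present for 17 of 20 G2/M genes, 6 of 8 G1/S genes and 3 of 9 other replication genes, beside 37.4%. Both CHR and NF-Y box occurred for 14 of 20 G2/M genes, beside 7.52% of all windows. The windows of 5 genes follow, 5′ to 3′ on the coding strand, with every match in capitals and overlapping matches joined. Mcm6 (chr1:128359656-128359955, minus strand) stands for the E2F pattern, and Cdk1 (chr10:69352863-69353162, minus strand) and Top2a (chr11:99024140-99024439, minus strand) for the CHR and NF-Y pattern. Tk1 (chr11:117825965-117826264, minus strand) and Zwint (chr10:72654596-72654895, plus strand) are shown because their transcripts passed the test with all 7 compounds on the TMM scale, as described later.
Mcm6: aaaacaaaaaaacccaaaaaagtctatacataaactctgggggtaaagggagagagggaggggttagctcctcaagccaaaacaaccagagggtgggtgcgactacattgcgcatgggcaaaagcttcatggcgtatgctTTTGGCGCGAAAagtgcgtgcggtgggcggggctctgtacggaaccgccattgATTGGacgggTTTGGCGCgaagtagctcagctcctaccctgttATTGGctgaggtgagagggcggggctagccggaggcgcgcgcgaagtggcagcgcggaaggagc
Cdk1: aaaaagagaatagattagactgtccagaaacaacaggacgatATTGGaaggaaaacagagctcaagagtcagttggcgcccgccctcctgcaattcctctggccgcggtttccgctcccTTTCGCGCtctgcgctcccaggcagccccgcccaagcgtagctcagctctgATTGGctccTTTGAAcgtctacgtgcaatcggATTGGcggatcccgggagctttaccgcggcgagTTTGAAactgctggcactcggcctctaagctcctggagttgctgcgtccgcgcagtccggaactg
Top2a: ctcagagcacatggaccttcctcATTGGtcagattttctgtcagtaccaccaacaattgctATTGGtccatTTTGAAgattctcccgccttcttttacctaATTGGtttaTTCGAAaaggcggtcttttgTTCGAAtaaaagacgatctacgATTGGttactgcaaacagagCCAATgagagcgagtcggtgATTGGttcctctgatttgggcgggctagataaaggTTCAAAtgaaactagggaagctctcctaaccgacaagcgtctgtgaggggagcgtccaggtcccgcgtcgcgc
Tk1: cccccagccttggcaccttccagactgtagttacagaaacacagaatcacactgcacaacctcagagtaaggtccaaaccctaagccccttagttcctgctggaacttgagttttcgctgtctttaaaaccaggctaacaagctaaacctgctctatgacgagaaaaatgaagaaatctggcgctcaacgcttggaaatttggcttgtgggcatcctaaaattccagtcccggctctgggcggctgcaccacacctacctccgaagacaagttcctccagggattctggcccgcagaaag
Zwint: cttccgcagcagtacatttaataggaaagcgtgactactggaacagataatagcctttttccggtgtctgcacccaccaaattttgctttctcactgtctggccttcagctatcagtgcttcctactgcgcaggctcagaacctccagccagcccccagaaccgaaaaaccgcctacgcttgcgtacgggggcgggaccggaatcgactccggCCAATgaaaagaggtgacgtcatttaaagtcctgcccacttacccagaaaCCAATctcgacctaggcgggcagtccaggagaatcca
The Mcm6 window held 3 E2F matches, and the Cdk1 window held E2F, CHR and NF-Y matches together, the one E2F match among the G2/M genes. In the Tk1 window none of these spellings occurred, and in the Zwint window only the NF-Y box did. A match describes letters in a window and is not a binding site.

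**Figure D1:**
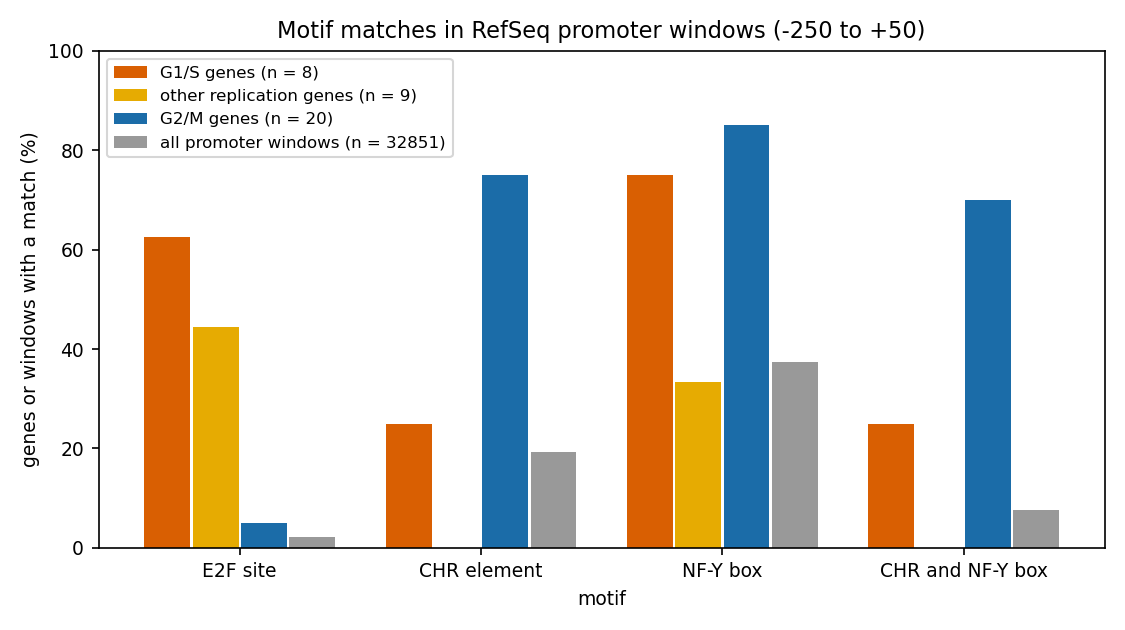
Percentage of genes (coloured bars) or of all RefSeq promoter windows (grey bars) with at least 1 match to each motif in the 300 bases around the annotated start. The E2F bars are tallest for the G1/S genes (62.5%) and the CHR bars for the G2/M genes (75%).

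Library totals lay between 13826343 and 35075809 estimated counts (median 21532116), and mitochondrial transcripts took 5.11% to 39.3% of a library. Levels are given as CPM, the estimated counts scaled to a common library size after TMM scaling over all 57 livers. The deposited values look corrected for transcript length, so levels of different genes can be set side by side roughly. Replicates are different mice, and the p-values measure the spread between mice. Setting CPM by library totals alone moved the median gene by more than 0.1 on the log2 scale with ANIT (from -0.01 to -0.23), APAP (0.07 to 0.22), CCl4 (0.10 to 0.53), GAL (0.08 to 0.84) and ConA (0.03 to -0.56). The genes called higher and lower then changed from 1965 and 2002 to 822 and 2651 with ANIT, from 2407 and 2029 to 2937 and 1113 with APAP, and from 2759 and 2393 to 4565 and 1100 with CCl4. With GAL they changed from 1981 and 2435 to 5515 and 844, and with ConA from 2381 and 2446 to 1101 and 3752. Fold changes below are relative to the TMM scale.

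In vehicle livers the cycle transcripts were scarce. The median level over the 17 vehicle livers lay under 1 CPM for 20 of the 24 G2/M genes, 3 of the 11 G1/S genes and 2 of the 9 other replication genes. The highest G2/M median was that of Zwint at 31.5 CPM, and the median over the G2/M genes was 0.326 CPM. Among the 13 gavage vehicle livers, the mice numbered 15, 16, 17 and 18 had the 4 highest G1/S scores, 1.46, 1.43, 1.56 and 1.38, where the score is the mean of log2(CPM + 0.5) over the 11 genes. The other 9 scored 1.01 to 1.34. The part of this split in the gavage comparisons was not tested. The range of mice numbered above 4, used below, holds these 4 mice and other vehicle mice together, so it does not separate them. Between vehicle routes, edgeR's quasi-likelihood test called 0 of 33 tested members in intraperitoneal saline against gavage vehicle, where 0.0131% of all genes were called, and 4 members had an unadjusted p under 0.05. It called 0 of 33 in intravenous saline against gavage vehicle, where 0.0263% of all genes were called, and 0 members had an unadjusted p under 0.05. DESeq2 also called 0 members in both. Each comparison set 2 saline mice against 13 gavage vehicle mice.

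Against the vehicle of their route, the compounds fell into 3 patterns of called genes (edgeR, Benjamini-Hochberg adjusted p under 0.05). With CCl4, APAP and TAA most called members were higher. CCl4 had 24 members higher and 1 lower of 40 tested, where 18% and 15.6% of all genes were called higher and lower. APAP had 18 higher and 1 lower of 34, with 17.3% and 14.6% of all genes. TAA had 14 higher and 5 lower of 31, with 26.4% and 24% of all genes. With ANIT and MDA, which damage bile duct cells, most were lower. ANIT had 1 higher and 18 lower of 31, with 14% and 14.2% of all genes, and MDA had 2 higher and 13 lower of 27, with 17.4% and 16.4%. GAL had 6 higher and 2 lower of 33, with 12.8% and 15.7%, and ConA had 4 higher and 3 lower of 31, with 16.8% and 17.3%. With library totals these became 14 higher and 1 lower with GAL, and 0 higher with ConA. The calls over all genes shifted the same way under that scaling, as given above, so these shifts are no result about the members. The members not tested, 4 to 17 of 44, fell below the filter on low counts (filterByExpr). They were fitted in the alternative without a filter, whose added calls are given with each gene. A gene can enter a test through the group in which it is high, so these counts describe the genes tested.

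Some of these counts rested on few mice. Without intraperitoneal saline mouse 8, 14 members were higher with CCl4, and 2 with GAL. Without saline mouse 7, or GAL mouse 4 or 8, 3 were higher with GAL, and leaving out any 1 of these 4 mice or GAL mouse 7 left 1 lower. Without intravenous saline mouse 7 or 8, 2 were higher with ConA, and without mouse 7, 1 was lower. Without ANIT mouse 2, 11 were lower with ANIT, and without TAA mouse 7, 3 were lower with TAA. Among mice numbered 1 to 4, 6 members were lower with ANIT, 3 higher with APAP, 2 lower with MDA, and 7 higher and 1 lower with TAA. Among mice numbered above 4, 6 were higher with APAP and 7 lower with MDA. Fewer mice enter each of these fits, and losses of calls over all genes were not set beside these counts.

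**Figure D2:**
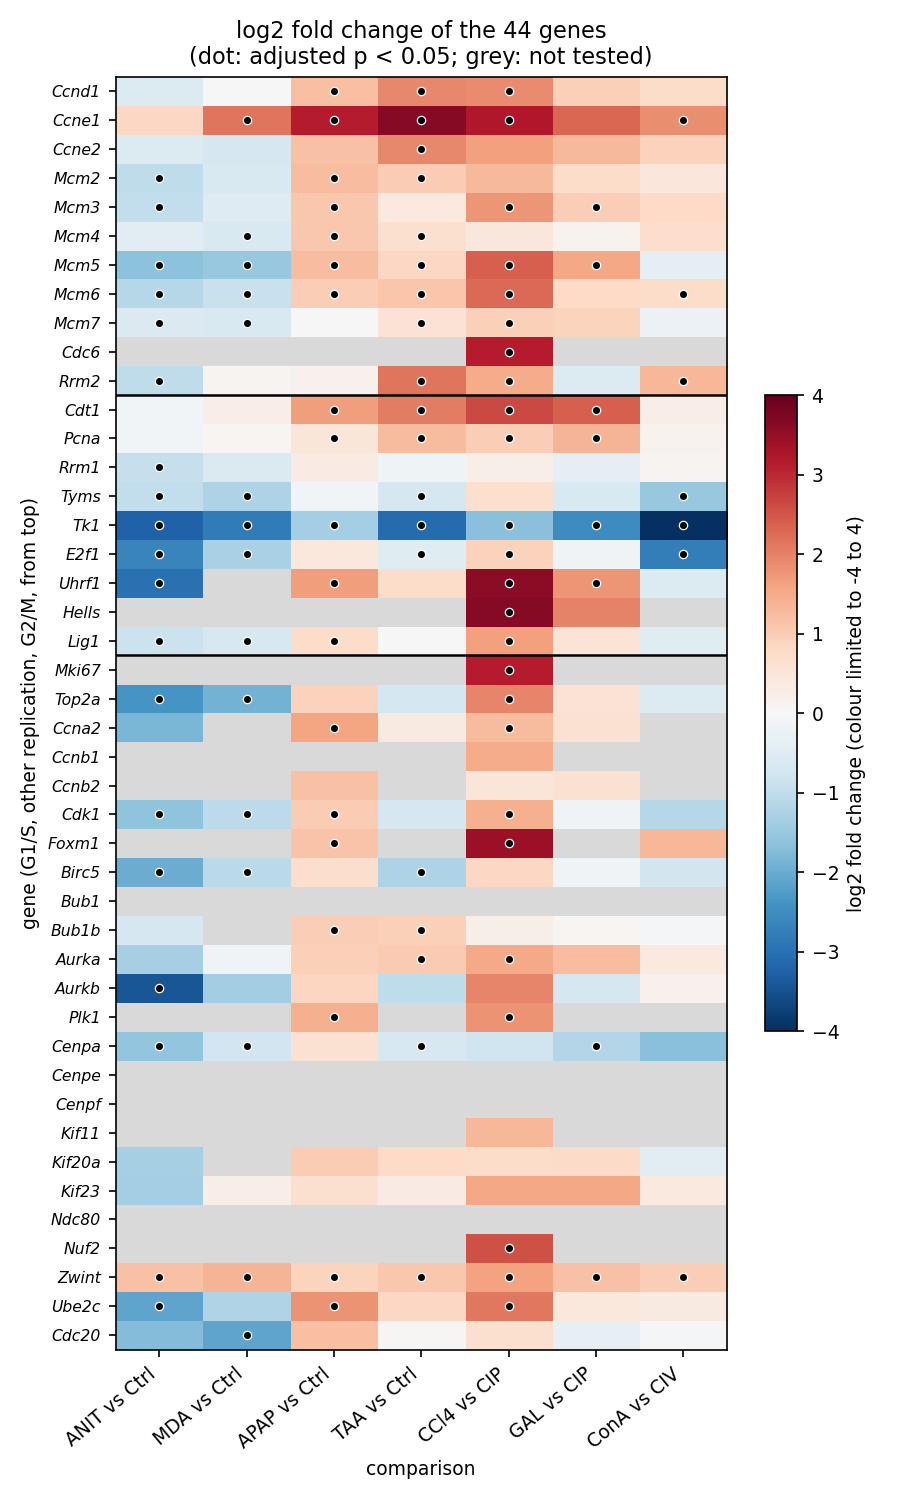
Log2 fold change of each of the 44 genes (rows, in the order G1/S, other replication, G2/M) for each compound against the vehicle of its route (columns), with dots for adjusted p under 0.05 and grey where the gene was not tested. CCl4 is dominated by red, ANIT by blue, and 3 rows keep a single colour across all 7 columns, Tk1 (blue), Ccne1 and Zwint (both red), of which Tk1 and Zwint carry a dot in each.

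Among members that passed the filter on low counts, Ccne1 had the largest fold called with APAP and TAA. Ccnd1 was higher with the same 2 compounds and with CCl4. Ccnd1 encodes cyclin D1, the partner of CDK4 and CDK6 in early G1. It lay at 4.46 to 13.3 CPM (median 7.33) in gavage vehicle livers, at 10.6 and 6.66 CPM with intraperitoneal saline, and at 8.36 and 4.02 CPM with intravenous saline. TAA livers held 21.3, 38.6, 24.5, 38.5 and 23.9 CPM, and CCl4 livers 25.1 to 39.9 CPM (median 34.4), all above every liver of their vehicle group. APAP livers held 8.75 to 22.4 CPM (median 18.3), which overlapped the vehicle range. The log2 fold changes were 1.93 ± 0.23 (SE) with TAA, 1.90 ± 0.26 with CCl4 and 1.2 ± 0.23 with APAP (edgeR adjusted p = 1.15e-06, 0.000453 and 0.000581). GAL livers, at 24.7, 18.7, 11.1 and 16.1 CPM, lay above both saline livers without passing the test (0.95 ± 0.36, edgeR adjusted p = 0.0937), although the gene was called in 3 of 13 alternatives, library totals (1.71) and DESeq2 among them. In ConA livers, at 4.29 to 17.8 CPM (median 9.77), and MDA livers, at 1.73 to 12.4 CPM (median 8.32), the ranges overlapped those of the vehicles. ANIT mouse 1 held 12.7 CPM and the other 3 ANIT livers 2.85, 3.20 and 2.94 CPM, and without mouse 1 the gene was called lower with ANIT. Exons of Ccnd1 overlap those of LTO1 on the opposite strand over up to 818 bases, and use of strand in the counting is not given in the sources used here.

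Ccne1, the gene of cyclin E1, which with CDK2 fires the entry into S phase, passed the test with 5 compounds. It lay at 0.184 to 0.894 CPM (median 0.466) in gavage vehicle livers, at 0.311 and 0.337 CPM with intraperitoneal saline and at 1.17 and 0.409 CPM with intravenous saline. TAA livers held 6.43, 4.59, 5.48, 3.07 and 9.17 CPM, APAP livers 1.59 to 11.0 CPM (median 1.93) and MDA livers 1.14 to 4.49 CPM (median 1.54). CCl4 livers held 1.46 to 4.23 CPM (median 2.76) and ConA livers 1.82 to 4.24 CPM (median 3.00). In these 5 groups every liver lay above every liver of its vehicle group. The log2 fold changes were 3.64 ± 0.29 with TAA, 3.22 ± 0.46 with CCl4, 3.13 ± 0.41 with APAP, 2.15 ± 0.31 with MDA and 1.85 ± 0.55 with ConA (edgeR adjusted p = 6.52e-09, 0.000619, 1.42e-05, 1.80e-05 and 0.0248). The ConA call was lost in 4 of 15 alternatives, among them library totals (1.26), no filter and leaving out intravenous saline mouse 8 (1.28). The GAL livers, at 3.57, 1.13, 1.27 and 0.653 CPM, were also all above saline (2.30 ± 0.80, edgeR adjusted p = 0.0739) and were called in 4 of 13 alternatives, among them library totals (3.08) and DESeq2. The ANIT livers spread from 0.166 to 1.59 CPM, with 0.578 and 1.02 CPM between, and overlapped the vehicle range. Ccne2, for the second E cyclin, passed the test with TAA alone (1.92 ± 0.56, edgeR adjusted p = 0.00721), and its range there, 0.288 to 2.48 CPM, overlapped that of the vehicle, 0.0556 to 0.914 CPM. Its exons overlap those of Ints8 (mean 3.49 CPM) on the opposite strand over up to 474 bases. The libraries were stranded, but use of strand in the counting is not given, so its counts are uncertain there.

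The 6 Mcm genes encode the MCM2-7 helicase, which is loaded on origins in G1 and unwinds DNA in S phase. Against gavage vehicle, 5 of the 6 were higher with APAP and 5 with TAA. With ANIT 5 of 6 were lower and with MDA 4 of 6, and with CCl4 4 of 6 were higher. Of all genes, 17.3% were higher with APAP, 26.4% with TAA and 18% with CCl4, and 14.2% were lower with ANIT and 16.4% with MDA. Mcm5 lay at 1.11 to 4.22 CPM (median 1.86) in gavage vehicle livers and at 1.2 and 2.31 CPM with intraperitoneal saline. CCl4 livers held 6.63 to 13.8 CPM (median 8.40) and GAL livers 5.62, 5.74, 4.96 and 4.93 CPM, with no overlap with saline. ANIT livers held 0.885, 0.658, 0.836 and 0.549 CPM, all below every gavage vehicle liver. MDA livers, at 0.467 to 1.13 CPM (median 0.812), overlapped the vehicle range only with their 2 highest livers, at 1.11 and 1.13 CPM. Its log2 fold changes were 2.39 ± 0.38 with CCl4, 1.55 ± 0.33 with GAL, -1.64 ± 0.35 with ANIT and -1.51 ± 0.28 with MDA (edgeR adjusted p = 0.00116, 0.0171, 0.00211 and 0.000328). TAA livers held 2.60, 5.40, 2.97, 3.32 and 5.36 CPM and APAP livers 1.47 to 8.70 CPM (median 5.07), higher by 0.82 ± 0.28 and 1.22 ± 0.32 (edgeR adjusted p = 0.0184 and 0.00590). ConA livers, at 1.80 to 4.58 CPM (median 2.58), overlapped the intravenous saline livers at 4.68 and 2.54 CPM.

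Mcm6 passed the test with 6 of the 7 compounds, up with CCl4 (2.27 ± 0.20), TAA (1.12 ± 0.20), APAP (0.98 ± 0.23) and ConA (0.73 ± 0.25, edgeR adjusted p = 0.0470), and down with ANIT (-1.13 ± 0.27) and MDA (-0.89 ± 0.20). The ConA call was lost in 13 of 15 alternatives, among them library totals (0.16), and held with DESeq2 and with all 17 vehicle livers, the adjusted p ranging from 4.93e-07 to 0.805. Mcm2 and Mcm3 were both higher with APAP (1.25 ± 0.27 and 1.09 ± 0.21) and lower with ANIT (-1.0 ± 0.30 and -0.99 ± 0.28). Mcm2 was also higher with TAA, and Mcm3 with CCl4 and GAL, the GAL call being lost in 8 of 13 alternatives. Mcm4 was higher with APAP (1.07 ± 0.20) and TAA (0.64 ± 0.24, lost in 9 of 14 alternatives) and lower with MDA (-0.60 ± 0.20). On the TMM scale Mcm7 moved least within the complex, between -0.59 with MDA and ANIT and 0.96 with CCl4. With library totals it ran from -0.83 with ANIT to 1.67 with GAL, and Mcm4 moved least, from -0.68 with ANIT to 1.21 with APAP. Exons of Mcm7 overlap Cops6 and Ap4m1 on the opposite strand.

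Cdc6, which helps load the helicase, lay at or below 1.17 CPM in every liver. It lay at 0.0476 to 0.383 CPM (median 0.126) in gavage vehicle livers and at 0.0784 and 0.0613 CPM with intraperitoneal saline. CCl4 livers held 0.479 to 1.06 CPM (median 0.784), all above both saline livers (3.15 ± 0.52, edgeR adjusted p = 0.00151). TAA livers held 0.164, 0.319, 0.335, 0.802 and 0.916 CPM, APAP livers 0.136 to 1.17 CPM (median 0.242) and GAL livers 0.175, 0.250, 0.234 and 0.438 CPM. ANIT livers held 0.0139, 0.0213, 0.192 and 0.0206 CPM, MDA livers 0 to 0.253 CPM (median 0.0634), and ConA livers 0 to 0.516 CPM (median 0.152) beside intravenous saline at 0.127 and 0.101 CPM. Outside CCl4 the gene fell below the filter on low counts, and without the filter it was called higher with TAA (1.81 ± 0.45) and APAP (1.61 ± 0.49) and not with the other 4 compounds.

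Rrm2 encodes the small subunit of ribonucleotide reductase, which makes deoxynucleotides and is limited to S phase in most cells. It lay at 1.69 to 4.46 CPM (median 2.75) in gavage vehicle livers, at 2.41 and 1.67 CPM with intraperitoneal saline and at 3.16 and 3.57 CPM with intravenous saline. TAA livers held 8.85, 7.58, 13.8, 15.8 and 16.8 CPM, CCl4 livers 3.34 to 8.56 CPM (median 5.43) and ConA livers 5.35 to 11.3 CPM (median 8.55). All 3 groups lay wholly above their vehicles, with log2 fold changes of 2.13 ± 0.19, 1.49 ± 0.36 and 1.34 ± 0.33 (edgeR adjusted p = 2.27e-08, 0.0103 and 0.0114). With library totals the ConA value was 0.77 and was not called. The GAL livers, at 1.31, 1.57, 1.37 and 1.72 CPM, and the APAP livers, at 1.85 to 4.47 CPM (median 3.11), overlapped their vehicles. ANIT livers held 0.407, 2.71, 0.733 and 1.92 CPM (-1.02 ± 0.34, edgeR adjusted p = 0.0332), a call lost in 5 of 11 alternatives. MDA livers ran from 0.782 to 8.05 CPM (median 1.97). The gene of the large subunit, Rrm1, was lower with ANIT (-0.92 ± 0.26, edgeR adjusted p = 0.0139) and passed the test with no other compound.

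Among the other replication genes, the licensing factor Cdt1 and the polymerase clamp Pcna were called higher with 4 compounds. Pcna lay at 9.45 to 17.3 CPM (median 14.2) in gavage vehicle livers, at 13.8 and 8.33 CPM with intraperitoneal saline, and at 11.4 and 20.6 CPM with intravenous saline. TAA livers held 23.0, 24.4, 39.7, 33.3 and 37.4 CPM, GAL livers 22.1, 32.7, 32.8 and 32.8 CPM and CCl4 livers 19.8 to 24.0 CPM (median 22), all above their vehicles. APAP livers held 14 to 23.2 CPM (median 18.7). Pcna was higher with TAA (1.26 ± 0.14), GAL (1.37 ± 0.31), CCl4 (0.97 ± 0.18) and APAP (0.47 ± 0.14), and Cdt1 with the same 4 compounds (2.05 ± 0.25, 2.38 ± 0.27, 2.64 ± 0.18 and 1.66 ± 0.28). Neither gene passed the test with ANIT, MDA or ConA. Pcna there lay at 11.0, 13.4, 13.7 and 11.9 CPM with ANIT, at 11.8 to 17.4 CPM with MDA and at 11.7 to 23.9 CPM with ConA.

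Uhrf1 and Hells maintain DNA methylation behind the fork, and Lig1 joins the fragments of the lagging strand. Hells lay at 0.0288 to 0.369 CPM (median 0.0917) in gavage vehicle livers and at 0.0795 and 0.0437 CPM with intraperitoneal saline. In CCl4 livers it held 0.532 to 1.55 CPM (median 1.13), with no overlap. Its fold was the largest called with CCl4 among members that passed the filter on low counts (3.65 ± 0.66, edgeR adjusted p = 0.00241). GAL livers held 0.233, 0.435, 0.427 and 0.368 CPM (2.00 ± 0.72, edgeR adjusted p = 0.0809). Elsewhere it fell below the filter, and without the filter it was called lower with ANIT (-4.50 ± 1.24) and higher with TAA (1.77 ± 0.63). There it lay at 0.0302, 0.0173, 0.0195 and 0.0166 CPM with ANIT, at 0.532, 0.236, 0.669, 0.765 and 0.106 CPM with TAA, at 0.0157 to 0.718 CPM with APAP, at 0.00582 to 0.264 CPM with MDA and at 0.0863 to 0.428 CPM with ConA. Intravenous saline livers held 0.0190 and 0.641 CPM. Uhrf1 was higher with CCl4 (3.59 ± 0.49), GAL (1.76 ± 0.42) and APAP (1.68 ± 0.49) and lower with ANIT (-2.98 ± 0.69). Lig1 was higher with CCl4 (1.65 ± 0.26) and APAP (0.75 ± 0.28) and lower with ANIT (-0.85 ± 0.29) and MDA (-0.65 ± 0.23). The calls of Lig1 were lost in 8 of 15 alternatives with APAP, 6 of 11 with ANIT and 9 of 16 with MDA, and that of Uhrf1 with GAL in 9 of 13. Lig1 overlaps exons of Zswim9 on the opposite strand over up to 247 bases.

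E2f1, an activator of G1/S genes, was lower with ANIT (-2.65 ± 0.22), ConA (-2.77 ± 0.54), MDA (-1.30 ± 0.20) and TAA (-0.49 ± 0.15), and higher with CCl4 (0.91 ± 0.31, edgeR adjusted p = 0.0497). The CCl4 call was lost in 12 of 15 alternatives, DESeq2 and no filter among them. In the ANIT, ConA and MDA groups no liver reached its vehicle range. Tyms, the thymidylate synthase gene, was lower with ConA (-1.5 ± 0.35), MDA (-1.23 ± 0.19), ANIT (-0.99 ± 0.22) and TAA (-0.71 ± 0.22). With library totals Tyms kept its calls with TAA and ConA, while E2f1 with TAA and Rrm2 with ConA (0.77) were not called.

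Tk1, the gene of cytosolic thymidine kinase, was lower with all 7 compounds. It lay at 31.6 to 59.8 CPM (median 38.4) in gavage vehicle livers, at 54.5 and 36.5 CPM with intraperitoneal saline and at 47.8 and 42.4 CPM with intravenous saline. ConA livers held 0.865 to 2.69 CPM (median 1.59), ANIT livers 6.53, 4.91, 2.04 and 4.07 CPM, and TAA livers 4.32, 3.81, 5.09, 6.63 and 3.73 CPM. MDA livers held 2.01 to 9.02 CPM (median 6.29), GAL livers 8.74, 7.58, 10.3 and 6.55 CPM, CCl4 livers 9.38 to 20.8 CPM (median 15.2) and APAP livers 2.19 to 28.5 CPM (median 16.2). No treated liver reached the range of its vehicle group. The log2 fold changes were -4.73 ± 0.32 with ConA, -3.25 ± 0.27 with ANIT, -3.09 ± 0.19 with TAA and -2.78 ± 0.23 with MDA (edgeR adjusted p = 1.99e-05, 4.14e-07, 1.91e-10 and 3.29e-08). They were -2.53 ± 0.26 with GAL, -1.68 ± 0.25 with CCl4 and -1.36 ± 0.38 with APAP (edgeR adjusted p = 0.00257, 0.000853 and 0.0105). Exons of Tk1 overlap exons of Afmid, a kynurenine pathway enzyme gene on the opposite strand, over up to 83 bases. Afmid itself was lower with all 7, by log2 fold changes between -1.39 (ANIT) and -3.66 (GAL). The libraries were stranded, but strand use in the counting is not given, so the assignment of reads over the shared stretch is not known. ConA was lowest for Tk1 and GAL for Afmid, and a part of Afmid reads in the Tk1 counts was not tested.

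**Figure D3:**
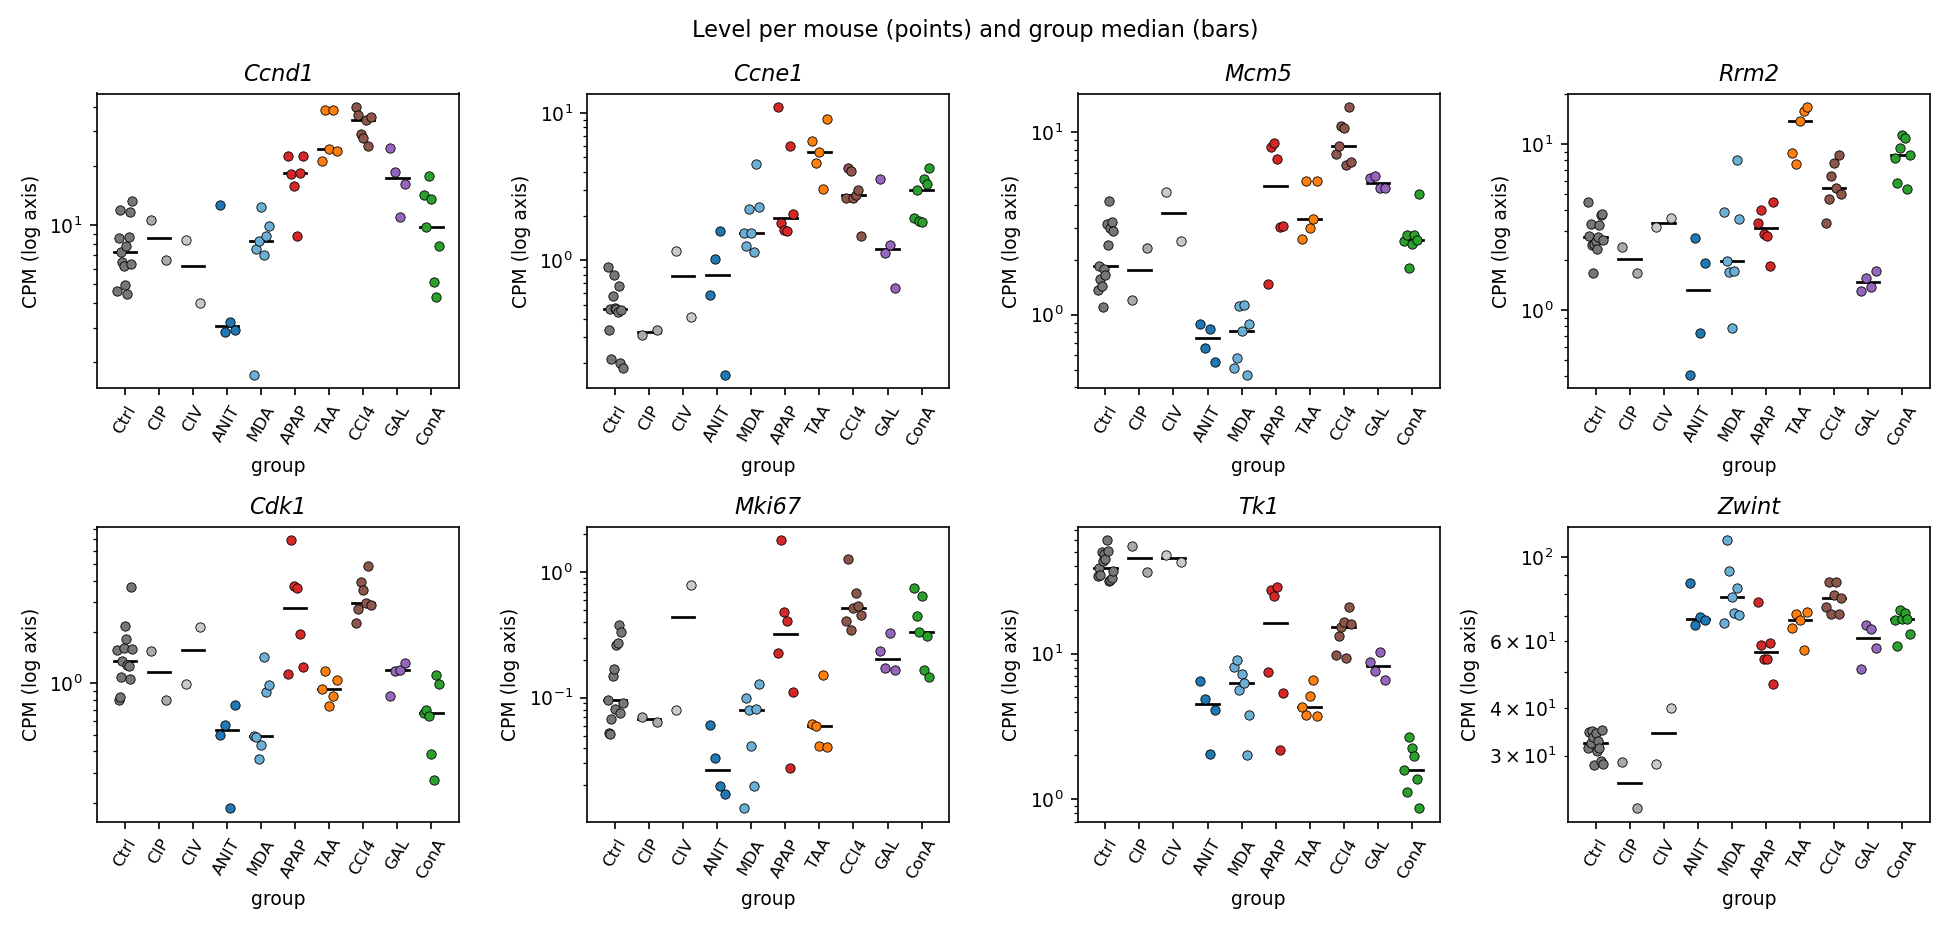
CPM on log axes for 8 members, 1 point per mouse, with bars at group medians, for the 3 vehicle groups (grey; Ctrl gavage, CIP intraperitoneal and CIV intravenous) and 7 compounds. Ccne1 and Zwint points of most treated groups lie above the vehicles, all Tk1 points of treated mice lie at or below 28.5 CPM and under every vehicle point, and Mki67 stays under 2 CPM throughout.

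Of the tested G2/M genes, 10 of 20 were higher with CCl4 and 7 of 16 with APAP, and none was lower. Of all genes, 18% and 17.3% were higher with these 2 compounds. With ANIT 6 of 13 and with MDA 5 of 10 were lower and Zwint was higher, where 14.2% and 16.4% of all genes were. With TAA 3 of 13 were higher and 2 lower, beside 26.4% and 24% of all genes. The TAA counts do not exceed those shares and are no result about the set. The other G2/M genes tested with these compounds did not pass. Cdk1, the mitotic kinase, lay at 0.798 to 3.66 CPM (median 1.36) in gavage vehicle livers, at 1.54 and 0.795 CPM with intraperitoneal saline and at 0.987 and 2.15 CPM with intravenous saline. CCl4 livers held 2.28 to 4.87 CPM (median 2.94), all above saline, and ANIT livers 0.502, 0.572, 0.185 and 0.747 CPM, all below every gavage vehicle liver. APAP livers held 1.13 to 6.89 CPM (median 2.77) and MDA livers 0.359 to 1.43 CPM (median 0.495). The log2 fold changes were 1.43 ± 0.34 with CCl4, 1.01 ± 0.34 with APAP, -1.62 ± 0.40 with ANIT and -1.04 ± 0.31 with MDA (edgeR adjusted p = 0.0102, 0.0276, 0.00624 and 0.0132). The APAP call was lost in 7 of 15 alternatives. TAA livers, at 0.926, 1.18, 0.733, 0.842 and 1.05 CPM, GAL livers, at 0.839, 1.19, 1.2 and 1.31 CPM, and ConA livers, at 0.271 to 1.12 CPM (median 0.670), overlapped their vehicles.

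Mki67 encodes Ki-67, the antigen used to mark cycling cells, and Top2a the topoisomerase that untangles sister chromosomes. Mki67 lay at 0.0518 to 0.380 CPM (median 0.0958) in gavage vehicle livers, at 0.0704 and 0.0639 CPM with intraperitoneal saline and at 0.0795 and 0.796 CPM with intravenous saline. CCl4 livers held 0.346 to 1.28 CPM (median 0.521), all above saline (3.13 ± 0.74, edgeR adjusted p = 0.0101). This was the only comparison in which Mki67 passed the filter on low counts, and without the filter it was called with no other compound (ANIT -2.27 ± 0.81, APAP 1.60 ± 0.59 and TAA -1.21 ± 0.58). Elsewhere it lay at 0.0609, 0.0333, 0.0197 and 0.0172 CPM with ANIT, at 0.0619, 0.0590, 0.0413, 0.150 and 0.0404 CPM with TAA, at 0.235, 0.173, 0.329 and 0.167 CPM with GAL, at 0.0131 to 0.129 CPM (median 0.0802) with MDA, at 0.0278 to 1.79 CPM (median 0.320) with APAP, and at 0.146 to 0.744 CPM (median 0.334) with ConA. All 4 GAL livers were above both saline livers, and the TAA livers sat within the range of the gavage vehicle or below it.

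Top2a was higher with CCl4, at 0.974 to 1.60 CPM (median 1.16) against 0.383 and 0.196 CPM with saline (1.94 ± 0.36, edgeR adjusted p = 0.00287). It was lower with ANIT, at 0.112, 0.0251, 0.0293 and 0.237 CPM, and with MDA, at 0.0356 to 0.260 CPM (median 0.104), against 0.0312 to 1.06 CPM (median 0.418) in gavage vehicle livers (-2.35 ± 0.85 and -1.90 ± 0.50, edgeR adjusted p = 0.0463 and 0.00573), the ANIT call being lost in 5 of 9 alternatives. TAA livers held 0.132, 0.266, 0.290, 0.362 and 0.349 CPM, GAL livers 0.144, 0.883, 0.520 and 0.408 CPM, APAP livers 0.150 to 2.93 CPM (median 0.615) and ConA livers 0.237 to 1.28 CPM (median 0.361) beside 0.272 and 1.28 CPM with intravenous saline. These 4 groups overlapped their vehicles and did not pass the test.

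Ccnb1, for cyclin B1, passed the filter on low counts with CCl4 alone and did not pass the test there (1.5 ± 0.68, edgeR adjusted p = 0.123), although the CCl4 livers, at 0.197 to 0.572 CPM (median 0.222), all lay above saline at 0.125 and 0.0817 CPM. It was listed at 0 in all 4 ANIT livers, where it was called lower without the filter, and ran from 0 to 0.672 CPM (median 0.128) in gavage vehicle livers. The other groups held 0 to 0.279 CPM with MDA, 0.0364 to 1.78 CPM with APAP, 0.0198, 0.185, 0.0475, 0.0435 and 0.717 CPM with TAA, 0.0757, 0.691, 0.155 and 0.203 CPM with GAL, and 0.0750 to 0.413 CPM with ConA. Aurkb, the kinase of the chromosomal passenger complex, had the largest fold called with ANIT among members that passed the filter. Without the filter Ccnb1 (-4.96), Nuf2 (-4.52) and Hells (-4.50) were called with larger falls. ANIT livers held 0.0935, 0, 0.229 and 0 CPM against 0.141 to 2.38 CPM (median 0.814) in gavage vehicle livers (-3.43 ± 0.95, edgeR adjusted p = 0.0117). It passed the test with no other compound.

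The remaining mitotic genes were called in both directions. With CCl4, Foxm1 (3.43 ± 0.79), Nuf2 (2.55 ± 0.87), Ube2c (2.12 ± 0.44), Plk1 (1.79 ± 0.50), Aurka (1.53 ± 0.43) and Ccna2 (1.27 ± 0.42) were higher, a factor, a kinetochore protein, a ubiquitin enzyme, 2 kinases and cyclin A2. With APAP, Ube2c (1.81 ± 0.44), Ccna2 (1.57 ± 0.46), Plk1 (1.44 ± 0.44), Foxm1 (1.13 ± 0.35) and the checkpoint kinase gene Bub1b (0.99 ± 0.37) were higher. With TAA, Aurka (1.05 ± 0.38) and Bub1b (0.94 ± 0.37) were higher while Birc5 (-1.23 ± 0.48), for survivin, and Cenpa (-0.65 ± 0.24), for the centromeric histone, were lower. Birc5 and Cenpa were lower with ANIT (-1.98 ± 0.59 and -1.58 ± 0.32) and MDA (-1.09 ± 0.39 and -0.76 ± 0.26) as well, and Cenpa with GAL (-1.17 ± 0.30). Several of these calls were lost in many alternatives. With TAA, Bub1b lost its call in 10 of 13, Birc5 in 9 of 13 and Aurka in 6 of 13. With CCl4, Nuf2 lost it in 10 of 13 and Ccna2 in 10 of 14. Birc5 with MDA lost it in 11 of 14, Bub1b with APAP in 9 of 14 and Cenpa with GAL in 8 of 13. Ube2c was lower with ANIT (-2.11 ± 0.66), and Cdc20, the activator of the anaphase complex, with MDA (-2.12 ± 0.56). Ccnb2, Kif11, Kif20a and Kif23, the last 3 motor proteins of the spindle and midbody, were tested in 1 to 7 comparisons and passed in none in the main test. With library totals Kif23 was higher with CCl4 (2.02 ± 0.61) and GAL (2.32 ± 0.72), and Kif20a was lower with ANIT (-1.56 ± 0.54). Ccnb2 was called higher with APAP without mouse 11, and Kif20a with APAP without mouse 8 and with TAA without mouse 1. The exons of Ccna2, Kif20a and Cdc20 overlap those of Exosc9, Cdc23 and Elovl1 on the opposite strand over up to 428, 977 and 53 bases, so their counts are uncertain for the same reason as those of Ccnd1. Without the filter on low counts, Nuf2 was also called lower with ANIT (-4.52 ± 0.81) and MDA (-2.98 ± 0.64), Plk1 lower with ANIT (-2.25 ± 0.68) and Bub1b lower with MDA (-1.41 ± 0.44). Bub1, Cenpe, Cenpf and Ndc80 fell below the filter in every comparison with vehicle. Without it, Bub1 was called higher with CCl4 (4.65 ± 1.29) and Cenpf higher with APAP (4.56 ± 1.09), where mouse 2 held 2.25 CPM and the other 5 livers at most 0.0506 CPM. Their highest values in any liver were 0.821, 0.432, 2.25 and 0.519 CPM.

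Zwint, for a protein of the outer kinetochore, was higher with all 7 compounds on the TMM scale, but with library totals it was not called with ConA (0.39), and it was far more abundant than the other G2/M genes. It lay at 28.3 to 35.1 CPM (median 32.3) in gavage vehicle livers, at 28.9 and 21.8 CPM with intraperitoneal saline and at 28.6 and 40.1 CPM with intravenous saline. MDA livers held 67.0 to 111 CPM (median 78.6), ANIT livers 85.5, 66.2, 69.7 and 68.2 CPM, TAA livers 64.9, 70.9, 68.3, 56.9 and 71.7 CPM and APAP livers 46.4 to 76.1 CPM (median 56.4). CCl4 livers held 70.9 to 86.1 CPM (median 78.0), GAL livers 50.7, 66.3, 64.8 and 57.5 CPM and ConA livers 58.5 to 72.5 CPM (median 68.6). No treated liver overlapped its vehicle group. The log2 fold changes lay between 0.89 ± 0.10 with APAP and 1.61 ± 0.16 with CCl4, with edgeR adjusted p between 4.61e-10 (MDA) and 0.0127 (GAL). The call was also lost with GAL without intraperitoneal saline mouse 8 and with APAP under the replicate block. With ANIT and MDA it was the one G2/M gene called higher, beside 6 and 5 G2/M genes called lower.

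Set side by side, the counts of both sets were as follows, beside the shares of all genes called and the median of all genes. The genes tested differ between compounds, since a gene can pass the filter through the group in which it is high. Cdc6, Mki67, Nuf2, Kif11 and Ccnb1 were tested with CCl4 alone, so counts and medians are not compared between compounds. With CCl4, 8 of 11 tested G1/S genes were higher (median log2 fold change 1.77) and 10 of 20 tested G2/M genes (1.51), where 18% of all genes were higher and their median was 0.10. With APAP the counts were 7 of 10 (1.13) and 7 of 16 (1.00), where 17.3% were higher (0.07). With TAA, 9 of 10 G1/S genes were higher (1.07), and 3 of 13 G2/M genes were higher and 2 lower (0.33). Of all genes, 26.4% were higher and 24% lower with TAA (median 0.03). The TAA counts of G2/M genes do not exceed these shares and are no result about that set. With GAL 2 of 10 G1/S genes (0.92), and with ConA 3 of 10 (0.74), were higher, beside 1 of 14 (0.51) and 1 of 13 (-0.05) G2/M genes, Zwint in both, and Cenpa was lower with GAL. These are near the shares of all genes called higher, 12.8% with GAL (median 0.08) and 16.8% with ConA (0.03), and are no result about either set. With ANIT 6 of 10 G1/S genes (-0.79) and 6 of 13 G2/M genes (-1.62) were lower, and with MDA 4 of 10 (-0.60) and 5 of 10 (-1.07), where 14.2% (-0.01) and 16.4% (0.03) of all genes were lower. Under library totals the G1/S counts became 7 higher with GAL and 0 higher with ConA (median 0.12), so the ConA and GAL counts turn on the scaling.

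The same contrast was read in every liver as the G1/S score minus the G2/M score, the latter the mean of log2(CPM + 0.5) over 24 genes. The difference was 0.94 to 1.46 (median 1.11) in gavage vehicle livers, 1.24 and 1.39 with intraperitoneal saline, and 1.72 and 0.996 with intravenous saline. It was 2.08 to 2.39 (median 2.23) in the 5 TAA livers, 1.84 to 2.29 (median 2.15) with CCl4, 1.71 to 2.04 (median 1.74) with GAL and 1.60 to 2.25 (median 1.98) with ConA. TAA, CCl4 and GAL livers lay wholly above the vehicles of their route, and ConA overlapped its 2. APAP livers spread from 0.992 to 1.88 (median 1.53), and ANIT (0.914 to 1.17) and MDA (0.957 to 1.47) stayed close to the vehicle range. For CCl4 the G2/M score itself was raised, at 0.231 to 0.765 against -0.205 and 0.0570, while all TAA livers, at -0.180 to 0.242, lay within the vehicle range of -0.233 to 0.260. The size also turned on the genes chosen: with all 20 G1/S and replication genes in place of the 11, the compound minus vehicle difference went from 1.12 to 0.56 with TAA, from 0.43 to 0.074 with APAP, from 0.43 to 0.24 with GAL and from 0.62 to -0.00092 with ConA. The score has no test here, and its size depends on the added 0.5 because most G2/M genes lie under 1 CPM.

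**Figure D4:**
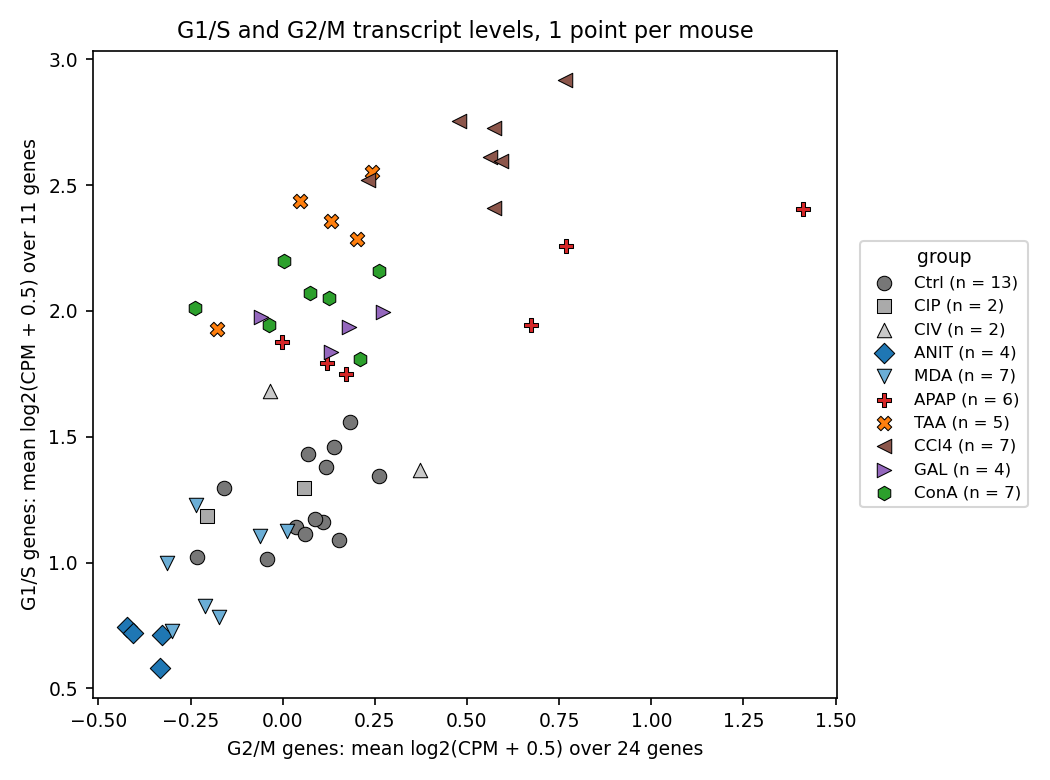
G1/S score (vertical axis) against G2/M score (horizontal axis), each a mean of log2(CPM + 0.5), 1 point per mouse, with vehicles in grey (Ctrl gavage, CIP intraperitoneal, CIV intravenous). TAA, GAL and ConA lie above the vehicles at the same horizontal range, CCl4 lies above and to the right, ANIT below and to the left, and APAP mouse 2 lies farthest right at 1.41.

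The APAP livers had the widest range of G2/M scores of the 10 groups. Their G2/M scores were 1.41, 0.768 and 0.674 in mice 2, 4 and 6 and 0.172, 0.121 and -0.00315 in mice 1, 8 and 11. Mice 2, 4 and 6 held the 3 highest APAP values for 29 of the 44 genes, for 16 of 24 G2/M genes, 8 of 9 other replication genes and 5 of 11 G1/S genes. Their Uhrf1 levels were 3.36, 2.84 and 2.74 CPM, against 0.189, 0.400 and 0.463 CPM in mice 1, 8 and 11. Tk1 lay at 27.2, 24.9 and 28.5 CPM against 7.45, 2.19 and 5.34 CPM. Ccne1 ran the other way, with 1.81, 1.60 and 1.59 CPM in mice 2, 4 and 6 and 11.0, 5.98 and 2.05 CPM in mice 1, 8 and 11. Mki67 (1.79 CPM), Top2a (2.93 CPM) and Cenpf (2.25 CPM) exceeded 1 CPM in mouse 2 and in no other APAP liver.

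Direct comparisons between compounds of the same route tested whether they differed. Between ANIT and MDA 0 of 21 tested members passed the edgeR test, where 0% of all genes were called and 4 members had an unadjusted p under 0.05 (DESeq2 also called 0). Their 9 tested G1/S genes differed by log2 fold changes between -1.32 and 0.15 (median -0.40). ANIT was lower than APAP for 15 of 32 members, where 5.98% of all genes were called in either direction, from Uhrf1 (-4.70 ± 1.12) and Ube2c (-3.94 ± 0.91) to Mcm4 (-1.54 ± 0.29). That count fell to 8, 1, 3 and 2 when ANIT mouse 1, 2, 3 or 4 was left out. ANIT was lower than TAA for 19 of 27 (26.2% of all genes called), including all 10 tested G1/S genes, from Rrm2 (-3.13 ± 0.49) to Mcm4 (-1.08 ± 0.35), and 12 members were called without TAA mouse 6. MDA was lower than TAA for 16 of 27 (30% of all genes called), again with all 10 tested G1/S genes and with Bub1b (-2.32 ± 0.47) at the head of the G2/M genes. APAP was higher than MDA for 13 of 25 (9.43% of all genes called), with Ube2c (3.02 ± 0.77) and Mcm5 (2.75 ± 0.41) furthest apart.

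APAP and TAA differed in 2 of 33 members, where 2.62% of all genes were called. Rrm2 was lower in APAP than in TAA (-1.95 ± 0.28, edgeR adjusted p = 0.00595) and Cenpa higher (1.27 ± 0.27, edgeR adjusted p = 0.0356). The count was 1 when TAA mouse 3, 6, 7 or 8 was left out, and 7 with DESeq2. The median log2 difference over the 14 tested G2/M genes was 1.10, and over the 10 G1/S genes -0.31, and 1 gene of each set passed the test. CCl4 and GAL, which share the saline controls, differed in 21 of 38 members, where 42.5% of all genes were called. In 20 of them CCl4 was higher, among them Aurkb (2.54 ± 0.64), Rrm2 (1.93 ± 0.25), Foxm1 (1.85 ± 0.40), Uhrf1 (1.74 ± 0.29), Cdk1 (1.49 ± 0.24) and Mki67 (1.38 ± 0.44). Pcna was the exception, lower in CCl4 than in GAL (-0.50 ± 0.13, edgeR adjusted p = 0.00757).

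Against all 17 vehicle livers, the compounds given by the 2 saline routes gained calls. CCl4 had 28 members higher and 2 lower of 37 tested (26.2% and 27.2% of all genes called), with all 11 G1/S genes higher. ConA had 10 higher and 5 lower of 30 (34.3% and 33.7%), with 7 of 10 G1/S genes higher and Ccne1 at 2.59 on the log2 scale. GAL had 10 higher and 5 lower of 33 (25.1% and 27.5%), with 7 of 10 G1/S genes higher and Rrm2 lower. APAP had 19 higher and 1 lower of 34 (18.1% and 15.3%), and TAA 13 higher and 5 lower of 32 (25.2% and 24.5%). ANIT had 1 higher and 20 lower of 31 (13.5% and 14.5%), and MDA 2 higher and 16 lower of 30 (17.2% and 17.1%).

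Of 85 further genes of the pathway, Cdkn1a and those with the largest called changes are described first. Cdkn1a, for the CDK inhibitor p21 and a p53 target, was higher with all 7 compounds, from 2.01 ± 0.20 with CCl4 to 4.33 ± 0.28 with ConA. It lay at 3.92 to 24.3 CPM in gavage vehicle livers and at 200 to 325 CPM in TAA livers, with no overlap. Myc, a growth-promoting factor, was higher with ConA (5.74 ± 0.51), TAA (4.65 ± 0.36), CCl4 (4.15 ± 0.27), GAL (3.35 ± 0.67), APAP (3.10 ± 0.47), MDA (2.17 ± 0.32) and ANIT (1.85 ± 0.41). E2f2, an activator E2F, was lower with ANIT (-3.96 ± 0.65), MDA (-2.77 ± 0.40) and TAA (-1.90 ± 0.42). Mcm10, an elongation factor of the fork, was lower with ConA (-2.85 ± 0.31), GAL (-2.69 ± 0.44), ANIT (-1.89 ± 0.40), TAA (-1.87 ± 0.31), MDA (-1.73 ± 0.30) and CCl4 (-1.39 ± 0.27), so with TAA and CCl4 it fell while 5 and 4 of the MCM2-7 genes rose. Chek1, the replication checkpoint kinase gene, was higher with APAP (3.43 ± 0.57) and TAA (2.20 ± 0.49). Wee1, for a kinase that restrains CDK1, was higher with all compounds but ANIT, from 1.10 ± 0.24 with MDA to 3.90 ± 0.39 with GAL. Orc1 and Cdc25c were listed at 0 in both intraperitoneal saline livers and held 0.132 to 0.395 and 0.0491 to 0.527 CPM with CCl4.

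The counts of the lists these genes came from are set beside the shares of all genes called higher and lower, which were 18% and 15.6% with CCl4, 17.3% and 14.6% with APAP, 26.4% and 24% with TAA, 12.8% and 15.7% with GAL, 16.8% and 17.3% with ConA, 17.4% and 16.4% with MDA and 14% and 14.2% with ANIT. A count near these shares is no result about a list. Of the 10 CDK inhibitor and pocket protein genes, 1 was higher and 1 lower of 8 tested with ANIT and with APAP, 1 and 2 of 8 with MDA, TAA and ConA, 2 and 1 of 9 with CCl4 and 1 and 2 of 9 with GAL, and Cdkn1a was the one called higher outside CCl4. Of the 15 other cyclin, kinase and E2F genes, 6 were higher and 0 lower of 15 with CCl4, 4 and 0 of 13 with APAP, 6 and 1 of 13 with TAA, 5 and 0 of 14 with GAL, 4 and 0 of 12 with ConA, 2 and 4 of 13 with MDA and 1 and 4 of 13 with ANIT. Of the 30 other origin and fork genes, 15 were higher and 2 lower of 30 tested with CCl4, 7 and 1 of 25 with APAP, and 7 and 8 of 24 with TAA. With ANIT the counts were 0 and 9 of 23, with MDA 0 and 11 of 23, with GAL 4 and 3 of 26, and with ConA 3 and 8 of 23. Of the 30 other mitosis genes, 4 were higher and 3 lower of 22 with CCl4, 3 and 2 of 10 with APAP and 0 and 5 of 11 with TAA. With ANIT they were 0 and 3 of 10, with MDA 1 and 4 of 10, with GAL 0 and 1 of 16 and with ConA 0 and 1 of 12. Over all 85 genes, 27 were higher and 6 lower of 76 with CCl4, 15 and 4 of 56 with APAP, 14 and 16 of 56 with TAA, 10 and 6 of 65 with GAL, 8 and 11 of 55 with ConA, 4 and 21 of 54 with MDA and 2 and 17 of 54 with ANIT. Others named by size were lower: Rfc5 (-2.72 ± 0.44) with ANIT, Ccnd2 (-2.19 ± 0.38) with MDA, Spc24 (-1.42 ± 0.37) and Cdkn2c (-0.66 ± 0.24) with APAP, Cdkn2c (-2.10 ± 0.29) with ConA, Cdkn1c (-2.99 ± 0.45) with GAL and Rbl2 (-1.33 ± 0.26) with CCl4. The call of Cdkn2c with APAP was lost in 9 of 15 alternatives.

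Markers of other cells also differed between the groups. Shares of all genes called higher and lower were 18% and 15.6% with CCl4, 17.3% and 14.6% with APAP, and 26.4% and 24% with TAA. They were 12.8% and 15.7% with GAL, 16.8% and 17.3% with ConA, 17.4% and 16.4% with MDA and 14% and 14.2% with ANIT. A count near these shares, such as 1 of 4 or 1 of 5, is no result about a cell type. Summed neutrophil markers lay at 2.17 to 59.8 CPM (median 4.92) in gavage vehicle livers and at 159 to 838 CPM with TAA, where 6 of 6 were called higher. They lay at 126 to 287 CPM with ConA against 7.48 to 8.82 CPM (4 of 5 tested higher), and at 25.5 to 40.3 CPM with GAL (4 of 4 higher) and 10.4 to 74.3 CPM with CCl4 (3 of 5 higher) against 5.04 to 5.30 CPM. With the other gavage compounds they lay at 13 to 271 CPM with APAP (3 of 4 tested higher), 8.46 to 132 CPM with MDA (2 of 4) and 15.2 to 47.5 CPM with ANIT (1 of 4). Ly6g, which defines neutrophils, was listed at 0 in all 17 vehicle livers and all ANIT livers. Summed B cell markers lay at 3.38 to 18.2 CPM with TAA and 0.922 to 13.6 CPM with gavage vehicle (3 of 3 tested higher), and 2 of 3 were lower with ANIT and 2 of 2 with MDA. Monocyte and macrophage markers lay at 177 to 283 CPM with GAL against 69.1 to 107 CPM (3 of 5 higher), and pan-leukocyte markers at 104 to 147 CPM against 71.2 to 79 CPM (2 of 5 higher). Pan-leukocyte markers were also higher with TAA (4 of 5), and monocyte and macrophage markers with APAP (3 of 5). Summed T cell markers lay at 0.652 to 4.53 CPM with CCl4 against 6.27 to 16.1 CPM (0 of 5 tested called), and at a median of 2.32 CPM with ANIT (0 of 4) and 1.42 CPM with MDA (1 of 3 lower) against 4.83 CPM. Pan-leukocyte sums had medians of 40.7 CPM with ANIT (1 of 5 lower) and 43.4 CPM with MDA (0 of 5) against 73.9 CPM, and monocyte and macrophage sums 61.5 CPM with ANIT (1 of 4 lower) and 47.3 CPM with MDA (1 of 5 higher) against 99.2 CPM. Cholangiocyte markers lay at 91.6 to 204 CPM with ConA against 26.7 to 59.4 CPM (2 of 5 tested higher). Their summed medians were 23.2 CPM with ANIT, 52.7 with MDA, 79.8 with APAP and 84.8 with TAA, against 42 in gavage vehicle livers. They were 55 CPM with CCl4 and 59.1 with GAL against 44.3 with intraperitoneal saline. The ranges of these 6 groups overlapped those of their vehicles. Of 6 sinusoidal endothelium markers, 5 were lower with TAA and 4 with each of MDA, CCl4 and ConA. With ConA, 6 of 6 Kupffer cell markers were lower (summed 25.5 to 51.8 CPM against 287 to 303 CPM). Summed hepatocyte markers were lower with CCl4 (16500 to 26600 CPM) and GAL (23200 to 30600 CPM) than with intraperitoneal saline (44300 to 51100 CPM), with 5 of 6 called lower in each. Erythroid precursors and myeloid progenitors are cycling cells that a liver can hold. Summed erythroid precursor markers lay at 37.8 to 76.6 CPM in gavage vehicle livers, 48.2 to 66.5 with intraperitoneal and 49.4 to 63.5 with intravenous saline. They lay at 14.1 to 25 CPM with ANIT, 17.1 to 29.3 with MDA, 8.72 to 36.3 with APAP, 22 to 50.9 with TAA, 11 to 29.1 with CCl4, 13.4 to 19.6 with GAL and 8.88 to 35.3 with ConA. Tk1 was lower in the same 7 groups. Of 6 markers, 2 were tested (Alas2 and Klf1), and 1 was lower with ANIT, APAP and MDA, 2 with TAA, CCl4 and GAL and 0 with ConA. Most of each sum in the vehicles was Alas2, at 35.2 to 74.0 CPM in gavage vehicle livers, and Hemgn was listed at 0 in all 17 vehicle livers. Summed myeloid progenitor markers lay at 0.134 to 3.64 CPM in gavage vehicle livers, at 1.38 to 10.2 with ANIT, 0.404 to 22.1 with APAP, 0.928 to 3.1 with MDA and 1.58 to 4.64 with TAA. They lay at 0.609 to 0.932 CPM with intraperitoneal saline, 1.33 to 8.86 with CCl4 and 0.128 to 0.623 with GAL, and at 0.625 to 0.737 with intravenous saline and 1.2 to 7.14 with ConA. Prtn3 was higher with ANIT, APAP, TAA and CCl4, and Mpo with ConA, and Ms4a3 was listed at 0 in every vehicle liver. The part of these shifts in the changes of the cycle genes, Tk1 included, was not tested.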

How the data were processed

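Liver RNA of 57 mice was sequenced single-end from stranded mRNA libraries, per the labels' protocols. The authors deposited estimated counts for 54307 Ensembl genes. Salmon 1.6.0, R 4.1.3 and GRCm39 are named in the submitters' processing notes, while annotation and strand setting are not given in the sources used here. GENCODE M21 supplied symbols for 51482 IDs, and 2825 stayed unnamed. Across 13043 genes with 1 transcript, which are not independent replicates, longer genes had smaller minimum values above 0 (Spearman -0.7601), so the estimated counts look corrected for length and counting intervals were not computed.

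Groups and mouse numbers were taken from the labels. Estimated counts were rounded and each comparison fitted on its 2 groups with edgeR 4.0.16 (limma 3.58.1, data.table in version 1.17.8, R 4.3.3), using TMM scaling, filterByExpr and the two-sided quasi-likelihood test without covariates. P-values were adjusted over all genes by Benjamini-Hochberg with a threshold of 0.05, and the fits were checked on simulated data, with pass limits loosened after a first run and few changed genes recovered for GAL and ConA. Alternatives were DESeq2 1.42.0, library totals, other filters and pseudocounts, all 17 vehicle mice, ranges of mouse number, a replicate block and leaving out mice. The 44 genes, the 85 other pathway genes, the marker lists and the tests were chosen with earlier results of these data known. Values in every sample are given for Ccnd1, Ccne1, Mcm5, Cdc6, Rrm2, Pcna, Cdk1, Ccnb1, Mki67, Top2a and, for each compound, the called member with the largest change. Of the pathway genes, Cdkn1a and the 2 highest and 2 lowest called genes of each compound are named, with their values for other compounds where called. Zwint and the split among the APAP mice were singled out after their values were seen.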

Additional observations from a re-analysis of the deposited data

Results flagged for a closer look

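In 77 groups of 4 to 10 values, 13 held a mouse set apart from the rest of its group by Dixon's criterion. For independent, normally distributed values chance meets it in about 1 group of 20. The values here were mostly CPM, many near 0, and the same mice recur across genes, so that rate may not hold. Among G1/S genes, Ccnd1 lay at 12.66 CPM in ANIT mouse 1 (others 2.85 to 3.2), Ccne1 at 4.49 CPM in MDA mouse 8 (others 1.14 to 2.31) and Rrm2 at 8.055 CPM in the same MDA mouse (others 0.782 to 3.92). Mcm5 lay at 4.575 CPM in ConA mouse 12 (others 1.8 to 2.72) and Cdc6 at 0.1916 CPM in ANIT mouse 3 (others 0.0139 to 0.0213). Pcna was low in GAL mouse 2, at 22.11 CPM (others 32.7 to 32.8).

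Among G2/M genes, APAP mouse 2 stood apart for Mki67, at 1.792 CPM (others 0.0278 to 0.486), and for Top2a, at 2.926 CPM (others 0.15 to 0.854). Mki67 lay at 1.278 CPM in CCl4 mouse 5 (others 0.346 to 0.678) and at 0.1504 CPM in TAA mouse 7 (others 0.0404 to 0.0619). Ccnb1 lay at 0.2792 CPM in MDA mouse 4 (others 0 to 0.0708) and at 0.7169 CPM in TAA mouse 8 (others 0.0197 to 0.185). The G1/S minus G2/M score was 2.037 in GAL mouse 2 (others 1.71 to 1.76).

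Compounds given by the same route differed by direct edgeR tests in 15 members (ANIT and APAP), 19 (ANIT and TAA), 13 (APAP and MDA), 2 (APAP and TAA), 16 (MDA and TAA) and 21 (CCl4 and GAL).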

How the results depend on the processing

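No result changed direction while called. Of 112 calls of members against the vehicle of the route, 30 were called in every alternative run, 13 of them with CCl4, 7 with TAA and 0 with APAP. The difference between the G1/S and G2/M scores, compound minus vehicle, was -0.02 with ANIT, 0.43 with APAP, 0.01 with MDA, 1.12 with TAA, 0.84 with CCl4, 0.43 with GAL and 0.62 with ConA. With a pseudocount of 0.1 it was 0.38 with ANIT, 0.19 with MDA, 1.35 with TAA and 0.63 with CCl4, and with a pseudocount of 1 it was 0.95 with TAA. With all 20 G1/S and replication genes in place of the 11, it was -0.30 with ANIT, 0.074 with APAP, -0.17 with MDA, 0.56 with TAA, 0.60 with CCl4, 0.24 with GAL and -0.00092 with ConA. With library totals it was 0.65 with GAL and 0.31 with ConA. Leaving Zwint out, chosen after seeing the data, gave 0.04, 0.45, 0.06, 1.16, 0.87, 0.47 and 0.67 in the same order of compounds.

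Mouse numbers did not pair the livers, since in no comparison with 3 or more shared numbers did every pair correlate above 0.1. With the replicate block, 2 members were lower with ANIT, 1 higher and 0 lower with APAP, 5 lower with MDA, 2 lower with TAA, and 3 higher and 1 lower with GAL. The block gave 0 members between ANIT and APAP, 1 between ANIT and TAA, 0 between APAP and MDA, 0 between APAP and TAA and 8 between MDA and TAA. No paired analysis was possible because 1 number was shared for CCl4 and saline, ConA and saline, and CCl4 and GAL.

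Among mice numbered 1 to 4, 6 members were lower with ANIT, 3 higher and 0 lower with APAP, 2 lower with MDA, and 7 higher and 1 lower with TAA. Among mice numbered above 4, 6 were higher with APAP, 7 lower with MDA and 2 higher with ConA. With library totals, 2 were lower with TAA, 14 higher and 1 lower with GAL, and 0 higher with ConA. DESeq2 called 10 higher with GAL, 24 between ANIT and APAP and 7 between APAP and TAA. Without a filter, 1 was lower with GAL, 2 higher with ConA, 6 differed between ANIT and APAP and 1 between APAP and TAA. With a mean of at least 1 CPM, 1 was higher with MDA and 12 differed between ANIT and TAA. With all 17 vehicle mice, 2 were lower with CCl4, 10 higher and 5 lower with GAL, and 10 higher and 5 lower with ConA. Shares of all genes called in these fits were not set beside these counts, and the cause of these shifts was not tested.

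Leaving out 1 mouse gave 11 to 15 lower with ANIT, 3 to 4 lower with TAA, 14 to 24 higher with CCl4, 2 to 9 higher and 1 to 2 lower with GAL, and 2 to 3 higher and 1 to 4 lower with ConA. It gave 1 to 8 between ANIT and APAP, 12 to 19 between ANIT and TAA and 1 to 2 between APAP and TAA. The gavage vehicle mice, and groups over 5 in the direct comparisons, were not left out in turn. The number range as a covariate was not run for ANIT, CCl4, GAL and ConA, where 1 range lacks 1 group. Mice numbered 1 to 4 could not be compared for CCl4, GAL and ConA, nor those above 4 for ANIT. Most G2/M genes lay under 1 CPM, where few counts limit each value.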
